A study of Mus musculus with 29 samples.

Results

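Antioxidant enzymes and metallothioneins were followed here in mouse liver as 10 genes, Mt1, Mt2, Hmox1, Nqo1, Gclc, Gclm, Txnrd1, Srxn1, Gsr and Cat. Every array spot that was not a control and whose gene name was 1 of these 10 was taken, which gave 13 probes, with 2 each for Hmox1, Gsr and Cat and 1 for each other gene. The array names 31693 genes in all. All 13 probes passed the filter on dim probes, and the 10 genes were tested among 19475 genes.

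Metallothioneins are small cysteine-rich proteins that bind zinc and copper. Their genes are switched on by the zinc-sensing factor MTF1 and by glucocorticoids, and in liver they also rise in the acute phase response. Most of the antioxidant enzymes are targets of NRF2, a transcription factor held back by KEAP1 until electrophiles or oxidants modify that sensor. NRF2 binds antioxidant response elements as a pair with a small MAF protein, and BACH1 competes for the same elements. Catalase stands apart, since it breaks down hydrogen peroxide in peroxisomes and its gene is also a target of nuclear receptors of the PPAR family.

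The samples were 29 livers of male C57BL/6N mice, 1 array each, though the labels do not say that each is from a separate mouse. The mice were 3 months old and on chow before the start. Over 7 weeks they were fed fat-rich food made with corn oil. By diet, 8 samples were from food with omega-3 phospholipids (cHF+PC) and 6 from food with low-dose rosiglitazone (cHF+R). Another 8 were from food with both (cHF+PC+R) and 7 from food without a supplement (cHF). All 4 groups thus share the high-fat diet, and no chow group was analysed here. The phospholipids, mainly phosphatidylcholine with EPA and DHA, took the place of roughly 7% of the lipid in the food. Rosiglitazone activates PPAR-gamma, a nuclear receptor. Values are log2 ratios of a liver's RNA, labelled with Cy5, to the RNA of all samples pooled, labelled with Cy3. A difference of 1 is a doubling. The dyes were not swapped, so 0 cannot be taken as the level of the pool for every probe. A probe of Cat, for example, lay above 0 in every liver (lowest 0.10, in cHF).

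There were 8 slides, none with more than 1 array from the same group. Of 43020 spots that were not controls, 55.0% to 62.5% were well above background in Cy5, and 80.8% on cHF replicate 4. The median correlation between arrays was 0.363 within groups and 0.171 between groups. The lowest was -0.305, between cHF+PC replicate 6 and cHF+R replicate 5. The labels state the dyes, so the direction of the ratios was kept. The markers of hepatocytes averaged 0.04 to 0.47 in cHF+PC livers, -0.18 to 0.36 in cHF+R livers, 0.04 to 0.41 in cHF+PC+R livers and 0.03 to 0.37 in cHF livers. In whole liver, fewer cells of a type and less RNA per cell cannot be told apart. The adipocyte genes Cfd and Retn averaged -3.24 to -1.46 in cHF+PC livers, -0.72 to 1.92 in cHF+R livers, -2.71 to 2.01 in cHF+PC+R livers and -2.49 to -1.36 in cHF livers. The other 3 adipocyte markers, Adipoq, Plin1 and Lep, were too dim to be tested, with 2, 2 and 0 arrays well above background. Of 7 hepatocyte markers, 3 had a positive change in cHF+PC against cHF, 0 in cHF+R against cHF and 4 in cHF+PC+R against cHF. Ttr was called lower in cHF+PC and Serpina1a in cHF+R livers, while in cHF+PC+R livers both were called lower and Cps1 higher. The part of fat tissue or other cells in the results was not tested.

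Mt1 and Mt2 are neighbours on chromosome 8, and Hmox1, Nqo1 and Gsr lie on the same chromosome. In GRCm38.p6 Mt2 runs from 94172618 to 94173567 and Mt1 from 94178883 to 94180327. Their promoter windows are shown because metallothionein promoters are known for metal response elements, the sites of MTF1. Each window holds 250 bases before and 50 after the start given in RefSeq's promoter table (GRCm38.p6, + strand). For Mt1 that start lies inside the annotated gene, past its first base. Capitals mark matches to TGCNCNC on either strand, where N is any base, with no overlap between matches. The pattern was searched as a loose form of the element's core, so a match need not be such an element.

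Mt1, chr8:94178839-94179138: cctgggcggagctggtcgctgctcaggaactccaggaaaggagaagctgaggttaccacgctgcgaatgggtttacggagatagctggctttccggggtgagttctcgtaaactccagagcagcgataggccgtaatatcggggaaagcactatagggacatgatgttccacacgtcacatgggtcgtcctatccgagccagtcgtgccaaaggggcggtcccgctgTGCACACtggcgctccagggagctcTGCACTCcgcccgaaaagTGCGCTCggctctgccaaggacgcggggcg

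Mt2, chr8:94172368-94172667: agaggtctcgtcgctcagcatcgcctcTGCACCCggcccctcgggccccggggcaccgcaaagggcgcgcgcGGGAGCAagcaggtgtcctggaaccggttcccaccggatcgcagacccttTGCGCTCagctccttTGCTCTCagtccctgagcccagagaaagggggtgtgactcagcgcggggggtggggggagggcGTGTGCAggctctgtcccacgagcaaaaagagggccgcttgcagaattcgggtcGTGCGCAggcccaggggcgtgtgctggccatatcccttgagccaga

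The Mt1 window holds 3 matches to TGCNCNC and the Mt2 window holds 6. At least 1 such match occurs in 51% of 32851 RefSeq promoter windows of 300 bases, so a match by itself is common. The RefSeq table matched 7 of the 10 genes and has no entry for Hmox1, Gclc and Gsr. The core of the antioxidant response element, TGACNNNGC on either strand, occurs in 12.4% of the windows and was found in those of Mt2, Gclm, Srxn1 and Txnrd1. Of the 3 windows of Txnrd1, 1 holds it. These 4 matches are shown with 10 bases on either side and the core in capitals, since most of the antioxidant enzymes are NRF2 targets. All are read on the + strand of GRCm38.p6, where a core on the opposite strand appears as its reverse complement.

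Mt2, chr8:94172529-94172557: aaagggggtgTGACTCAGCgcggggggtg

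Gclm, chr3:122245413-122245441: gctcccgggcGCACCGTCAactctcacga

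Txnrd1, chr10:82859104-82859132: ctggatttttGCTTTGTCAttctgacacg

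Srxn1, chr2:152105542-152105570: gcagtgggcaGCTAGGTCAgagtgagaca

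The windows of Nqo1, Cat and Mt1 hold no such core, which says only that these letters are absent from these 300 bases. A match is a description of the sequence and no evidence of binding.

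Across the diets, Nqo1 and Cat were the members that passed the test, limma's moderated test with Benjamini-Hochberg adjustment over all genes and a threshold of 0.05. In cHF+PC+R against cHF, 1 of 10 members (Nqo1) was called higher, where 4.74% of all genes were called higher and 9.5% were called in either direction. In cHF+PC+R against cHF+R, 1 of 10 (Cat) was called higher, against 3.31% of all genes higher and 7.14% called. With the phospholipid effect averaged over rosiglitazone, which uses all 29 livers, 2 of 10 (Nqo1 and Cat) were called higher, against 7.61% of all genes higher and 16.2% called. These shares rest on 1 or 2 genes of 10 and are read as counts only.

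No member was called in cHF+PC against cHF by limma, where 3.92% of all genes were called, and 3 members had an unadjusted p under 0.05. None was called in cHF+R against cHF (3.12% of genes called), with 0 members under an unadjusted 0.05. None was called either in cHF+PC+R against cHF+PC (0.134% of genes), nor with the rosiglitazone effect averaged over phospholipids (4.2%), where 0 and 2 members were under an unadjusted 0.05. The interaction, which asks whether the phospholipid effect differs with and without rosiglitazone, had 0 calls among all genes, and 0 members were under an unadjusted 0.05. Comparisons against cHF share the same 7 control livers.

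The signs were mostly positive. All 10 of 10 members had a positive log2 change in cHF+PC+R against cHF, with a median of 0.18, where 54.4% of all genes were positive with a median of 0.01. In cHF+PC against cHF, 8 of 10 were positive, with a median of 0.09, where 50.4% of all genes were positive. For cHF+R against cHF, 7 of 10 were positive, with a median of 0.18, where 56.5% of all genes were positive with a median of 0.01. These are the signs of estimates, of which 1 in these 3 comparisons passed the test.

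**Figure D1:**
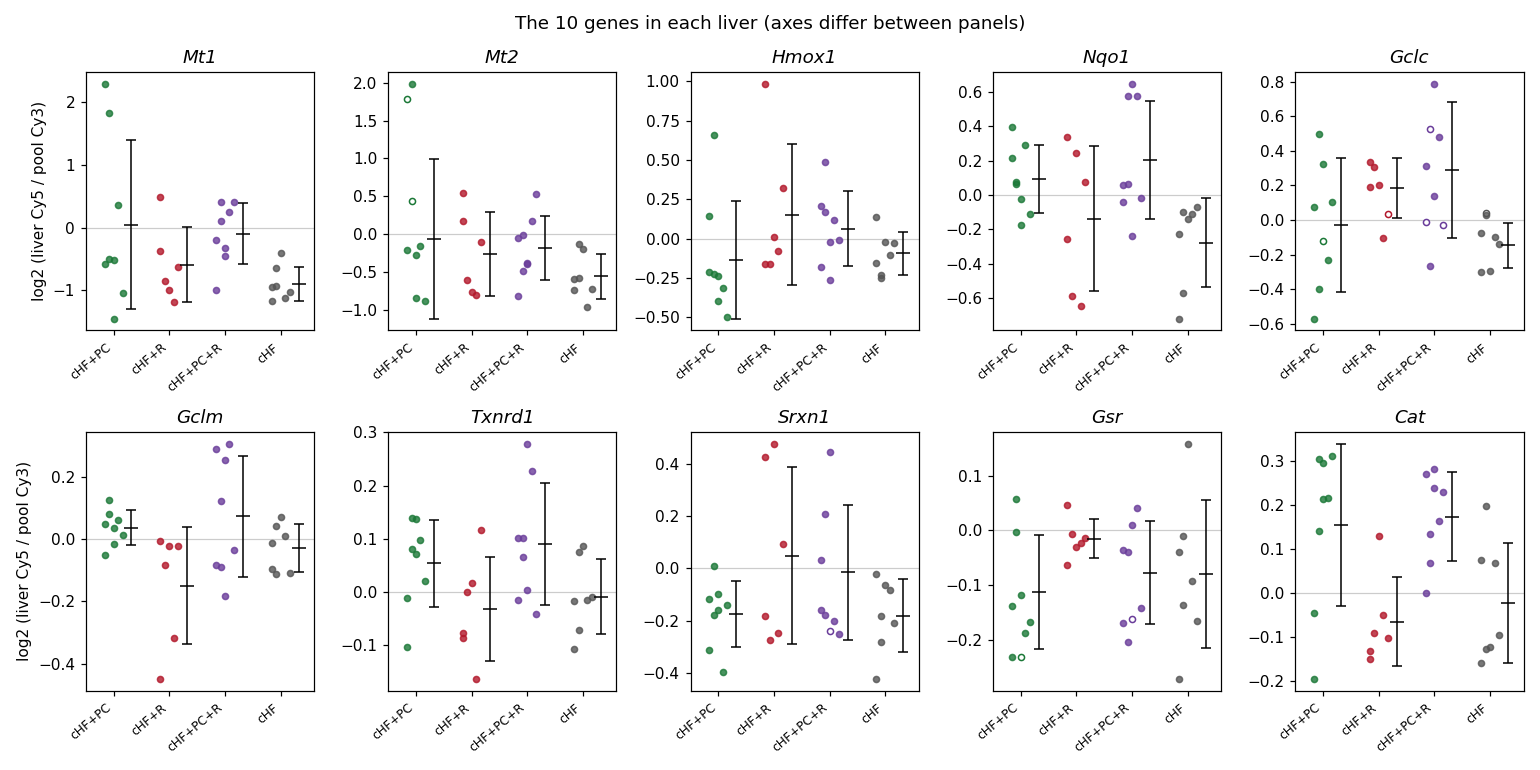
Log2 ratio of liver to pool for the 10 genes (y axis, scaled per panel) in each liver of cHF+PC, cHF+R, cHF+PC+R and cHF (x axis). Points are livers, open points are spots marked as outliers by the scanner software and left out, and bars are mean ± SD of the filled points. Mt1 reaches 2.30 in a cHF+PC liver while all cHF livers lie at -0.41 or below.

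The 95% intervals of the changes differ widely between genes. Mt1 had the widest of the 10 in cHF+PC against cHF, from 0.14 to 1.75, while Gsr and Txnrd1 had narrow ones, from -0.14 to 0.08 for Gsr and from -0.04 to 0.16 for Txnrd1.

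**Figure D2:**
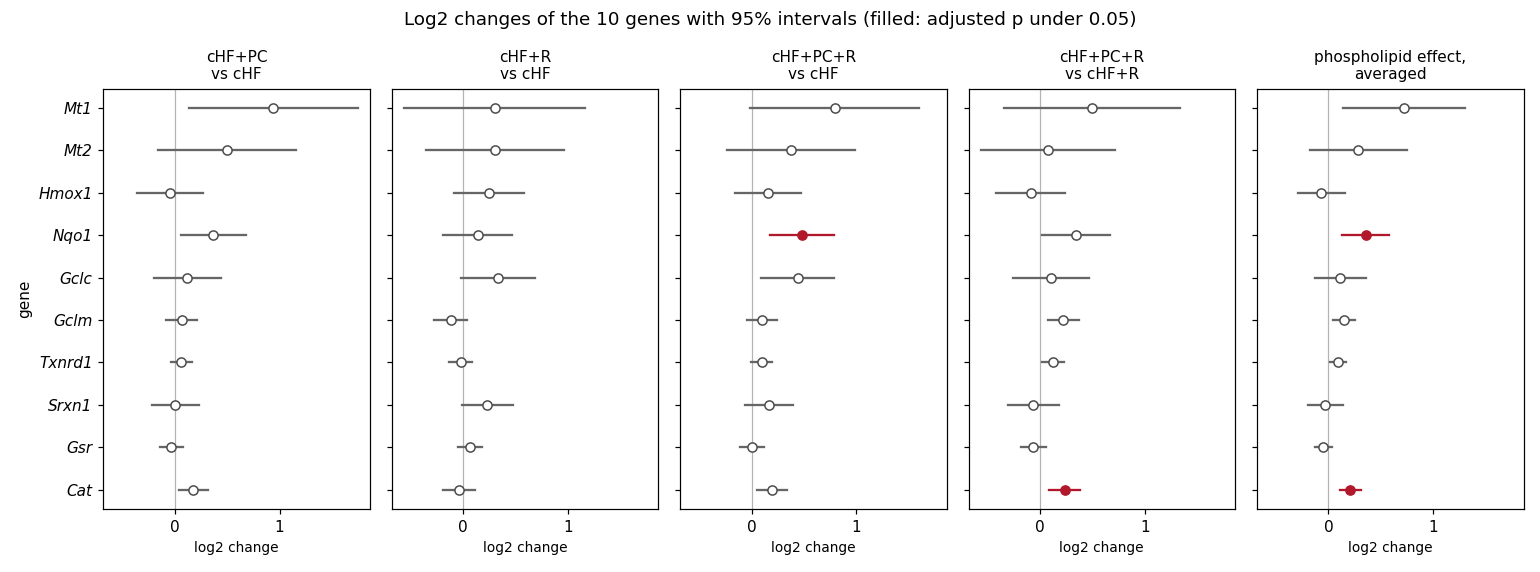
Log2 change of each gene (x axis, with its 95% interval from limma) in 4 comparisons and for the phospholipid effect averaged over rosiglitazone. Filled red points passed the adjusted threshold of 0.05: Nqo1 in cHF+PC+R against cHF, Cat in cHF+PC+R against cHF+R, and both in the averaged phospholipid effect.

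Mt1, metallothionein 1, was low and even in cHF livers and spread widely in cHF+PC livers. Its log2 ratio was -1.45 at the lowest, -0.51 at the median and 2.30 at the highest of 8 cHF+PC livers. The cHF+R livers had -1.18, -0.74 and 0.48, and in cHF+PC+R livers -0.99, -0.05 and 0.42. In cHF livers it was -1.17, -0.95 and -0.41. All groups overlap, but 2 cHF+PC livers, replicate 6 at 2.30 and replicate 2 at 1.82, stood above all other livers. The SD was 1.35 in cHF+PC livers, 0.60 in cHF+R, 0.49 in cHF+PC+R and 0.27 in cHF livers.

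The Mt1 change in cHF+PC against cHF was 0.94 ± 0.394 (SE), which did not pass (limma adjusted p = 0.188). It was 0.62 without cHF+PC replicate 6 (adjusted p = 0.347) and 0.69 without cHF+PC replicate 2 (adjusted p = 0.358). Within the 7 slides that carried both groups it was higher on 6, from -1.04 to 3.32. The Mt1 change in cHF+PC+R against cHF was 0.79 ± 0.394 (adjusted p = 0.212), with 6 of 7 slides higher. The highest cHF+PC+R liver was at 0.42, and 7 of 8 cHF+PC+R livers lay above the cHF median. When only these 2 groups were fitted, without the spread of the cHF+PC livers, the adjusted p was 0.0117. The phospholipid effect averaged over rosiglitazone was 0.72 ± 0.285 for Mt1 (adjusted p = 0.0841).

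Mt2, metallothionein 2, showed the same livers at the top. It was -0.88 at the lowest, -0.25 at the median and 1.99 at the highest of 6 cHF+PC livers with a value. It was -0.80, -0.35 and 0.55 in cHF+R livers, in cHF+PC+R livers -0.82, -0.22 and 0.52, and in cHF livers -0.96, -0.60 and -0.13. The groups overlap, and cHF+PC replicate 2, at 1.99, lies far above the next cHF+PC liver at -0.15. The spots of cHF+PC replicates 6 and 7 were marked as outliers by the scanner software and left out. Kept, they read 1.79 and 0.44. The Mt2 change in cHF+PC against cHF was 0.50 ± 0.321 (adjusted p = 0.43), and 0.09 without cHF+PC replicate 2 (adjusted p = 0.895). With marked spots kept it was 0.79 (adjusted p = 0.19). The Mt2 change in cHF+PC+R against cHF was 0.38 ± 0.299 (adjusted p = 0.466).

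Across livers, after group means were subtracted, Mt1 and Mt2 varied together (Pearson r = 0.927, Spearman rho = 0.873, n = 27). Both had a permutation p of 1e-05, the smallest that 1e+05 permutations can give, and 0.00045 adjusted over the 45 pairs of members. Without the 2 livers farthest out in Mt1, r was 0.843. With slide means removed as well it was 0.934, and with marked spots kept it was 0.923 over 29 livers. The 60-base probes of Mt1 and Mt2 share no run longer than 7 bases and match at no more than 24 of 60 bases without gaps. Both probes cover 60 bases of chromosome 8 in mm9, from 96704165 to 96704224 for Mt1 and from 96697371 to 96697430 for Mt2.

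**Figure D3:**
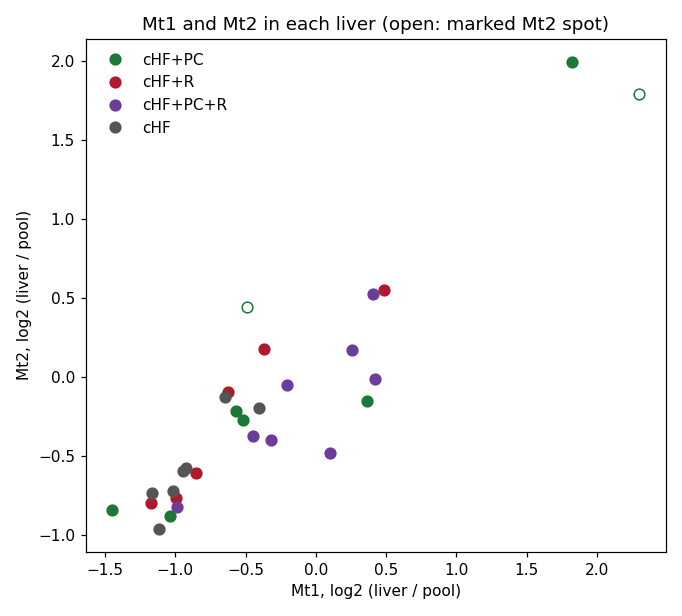
Log2 ratio of liver to pool for Mt1 (x axis) and Mt2 (y axis), 1 point per liver, coloured by diet group, with open points where the Mt2 spot was marked and left out of the tests. The 2 cHF+PC livers at the top right have Mt1 at 2.30 and 1.82, and the cHF livers lie at the lower left.

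Outside the members, the gene whose livers followed Mt1 most closely was Pip5k1a, a lipid kinase of phosphoinositides (r = 0.931, 29 livers). It was also first for Mt2 (r = 0.904, 27 livers). For Mt1 the ribosomal protein genes Rpl23 (0.866) and Rps27 (0.857) came next, and for Mt2 4930425O10Rik (0.806) and Gm6607 (0.793). These correlations, over residuals from group means on shared arrays, are descriptions. No probe of Pip5k1a shares a run of more than 7 bases with a metallothionein probe.

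The genes of zinc and copper handling were also listed. Of 12 tested, 0 passed in cHF+PC against cHF, 0 in cHF+R against cHF and 0 in cHF+PC+R against cHF by limma, with 4, 1 and 3 under an unadjusted 0.05. Mtf1, the zinc sensor, had log2 changes of 0.16 ± 0.0595 in cHF+PC against cHF (adjusted p = 0.126) and 0.14 ± 0.0595 in cHF+PC+R against cHF (adjusted p = 0.133). With the phospholipid effect averaged over rosiglitazone, Slc39a10, a zinc importer, fell by 0.20 ± 0.0501 (adjusted p = 0.00656) as the only call among the 12. Of the 7 glucocorticoid target genes, 0 passed in the 3 comparisons against cHF. Pck1 was the 1 call in that list for the averaged phospholipid effect and rose by 0.68 ± 0.23 (adjusted p = 0.0428). It was also the 1 call there in cHF+PC+R against cHF+R, again higher (adjusted p = 0.0451). Of the 10 acute phase genes, 0 passed in cHF+PC against cHF and 0 in cHF+PC+R against cHF. Apcs, serum amyloid P, was the 1 call in cHF+R against cHF and rose by 1.15 ± 0.187 (adjusted p = 0.000328). With the averaged phospholipid effect, Apcs fell by 0.81 ± 0.125 and Lcn2 by 0.34 ± 0.0894, while Itih3 rose by 0.33 ± 0.0795. Their adjusted p was 5.83e-05, 0.00898 and 0.00469. In cHF+PC+R against cHF+R, Apcs was called lower (-1.19 ± 0.181) and Itih3 higher (0.45 ± 0.118).

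Hmox1, haem oxygenase 1, degrades haem and is controlled by NRF2 and BACH1. It was high in a few livers of different diets. It was -0.50 at the lowest, -0.23 at the median and 0.66 at the highest in cHF+PC livers. Values in cHF+R livers were -0.16, -0.04 and 0.98, in cHF+PC+R livers -0.27, 0.06 and 0.49, and in cHF livers -0.25, -0.11 and 0.14. The highest livers were cHF+R replicate 6 (0.98), cHF+PC replicate 2 (0.66) and cHF+PC+R replicate 2 (0.49), and the groups overlap. On the second Hmox1 probe, the same 3 livers were the highest of their groups, at 0.50, 0.38 and 0.18.

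Of the comparisons, Hmox1 came nearest to a call with the rosiglitazone effect averaged over phospholipids (0.22 ± 0.11, adjusted p = 0.301). Its change in cHF+R against cHF was 0.25 ± 0.164 (adjusted p = 0.518). Without cHF+R replicate 6 these Hmox1 changes were 0.14 (adjusted p = 0.492) and 0.08 (adjusted p = 0.863). The second probe had 0.04 for the averaged effect and 0.07 for cHF+R against cHF. The 10 markers of Kupffer cells and macrophages, cells that take up red cells and express Hmox1, averaged 0.75 in cHF+R replicate 6, the highest of all cHF+R livers, against a cHF+R median of -0.09. They averaged 0.22 in cHF+PC replicate 2, the highest of the cHF+PC livers, whose median was -0.32, and 0.17 in cHF+PC+R replicate 2, whose group median was -0.15. Group ranges of that average were -0.60 to 0.22 in cHF+PC, -0.23 to 0.75 in cHF+R, -0.50 to 0.25 in cHF+PC+R and -0.48 to 0.19 in cHF livers. Of the 10 markers 0 passed in any of the 3 comparisons against cHF, with 0, 2 and 0 under an unadjusted 0.05. The part of these cells in the Hmox1 values was not tested.

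Hmox1 and Mt1 were correlated across livers by Pearson r (0.663, adjusted permutation p = 0.0241) but missed the threshold by Spearman rho (0.524, adjusted permutation p = 0.0755, n = 29). Without the 2 livers farthest out in Mt1, r was 0.56, and with slide means removed it was 0.629. The genes most like Hmox1 over 29 livers were Rasgef1b (0.898), B430306N03Rik (0.89) and Dmpk (0.889). Of 12 haem and iron handling genes, Fech, which inserts iron to make haem, was the only call in cHF+PC against cHF (rose by 0.20 ± 0.0488, adjusted p = 0.0168). Fech also rose in cHF+PC+R against cHF, by 0.27 ± 0.0504, while Blvra, biliverdin reductase A, fell by 0.16 ± 0.0485 (adjusted p = 0.0341).

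Nqo1, a quinone reductase that is a classic NRF2 target, was higher with both supplements. Its log2 ratio was -0.18 at the lowest, 0.07 at the median and 0.39 at the highest in cHF+PC livers. The cHF+R livers had -0.65, -0.09 and 0.34, in cHF+PC+R livers -0.24, 0.06 and 0.65, and in cHF livers -0.72, -0.14 and -0.07. All 7 cHF livers lay below 0, and the groups overlap. Among cHF+PC+R livers, replicates 2, 3 and 4 lay between 0.58 and 0.65 and the other 5 between -0.24 and 0.06.

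Nqo1 rose in cHF+PC+R against cHF by 0.48 ± 0.151 on the log2 scale, 1.40-fold (limma adjusted p = 0.0404), and was higher on 6 of 7 slides, from -0.14 to 1.15. With the slide as a block the change was 0.48 and the call was lost (adjusted p = 0.0742). Of 16 other settings, 9 lost the call, the deposited table among them (0.54, adjusted p = 0.0559), with changes between 0.38 and 0.62. With each of the 29 livers left out in turn, the call was lost for 7 of them, with an adjusted p of up to 0.0893. Those were cHF replicates 1 (0.0893), 2 (0.081), 3 (0.0516) and 6 (0.0598) and cHF+PC+R replicates 2 (0.0794), 3 (0.0858) and 4 (0.0879). The phospholipid effect averaged over rosiglitazone raised Nqo1 by 0.36 ± 0.109 (adjusted p = 0.0243), and by 0.35 with the slide as a block (adjusted p = 0.0493). That call was lost without cHF+R replicate 2 (0.0528) or 4 (0.0533). In cHF+PC against cHF the change was 0.37 ± 0.151 (adjusted p = 0.178) and in cHF+R against cHF 0.14 ± 0.162 (adjusted p = 0.75). The probe lies on chromosome 8 from 109912440 to 109912499 on the - strand in mm9.

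Gclc and Gclm encode the catalytic and modifier subunits of glutamate-cysteine ligase, the first step of glutathione synthesis. Gclc was -0.57 at the lowest, 0.07 at the median and 0.50 at the highest of 7 cHF+PC livers. In 5 cHF+R livers it was -0.11, 0.21 and 0.33, in 5 cHF+PC+R livers -0.27, 0.31 and 0.79, and in 6 cHF livers -0.30, -0.12 and 0.03. The groups overlap, and on 6 arrays the Gclc spot was marked and left out. The Gclc change in cHF+PC+R against cHF was 0.44 ± 0.169 (adjusted p = 0.105), on 4 of 4 slides higher, and with the slide as a block it was 0.41 and passed (adjusted p = 0.0488). Without cHF+PC+R replicate 7 it was 0.58 (adjusted p = 0.0299). Of 16 other settings and 29 runs with 1 liver left out, no others passed. With a liver left out, the change was as low as 0.31 and the adjusted p as high as 0.27. With marked spots kept, the Gclc mean was 0.24 in cHF+PC+R and -0.12 in cHF livers, against 0.29 and -0.15.

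Gclm spanned a narrow range in cHF+PC and cHF livers and a wider one in the others. It was -0.05 at the lowest, 0.04 at the median and 0.13 at the highest in cHF+PC livers, and -0.45, -0.05 and -0.01 in cHF+R livers. It was -0.18, 0.04 and 0.31 in cHF+PC+R livers and -0.11, -0.01 and 0.07 in cHF livers. Among cHF+R livers, replicates 1 and 4 lay at -0.45 and -0.32 and the others between -0.08 and -0.01. The Gclm change in cHF+PC+R against cHF+R was 0.22 ± 0.074 (adjusted p = 0.0631), and 0.25 with the slide as a block, which passed (adjusted p = 0.0484). The phospholipid effect averaged over rosiglitazone was 0.14 ± 0.0513 (adjusted p = 0.0517), and 0.15 with the slide as a block (adjusted p = 0.0491).

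Txnrd1, cytosolic thioredoxin reductase, moved in a narrow band. It was -0.10 at the lowest, 0.08 at the median and 0.14 at the highest in cHF+PC livers, and -0.16, -0.04 and 0.12 in cHF+R livers. It was -0.04, 0.08 and 0.28 in cHF+PC+R livers and -0.11, -0.02 and 0.09 in cHF livers, so that the groups overlap. Its phospholipid effect averaged over rosiglitazone was 0.09 ± 0.0355 (adjusted p = 0.0745), and without cHF+PC replicate 6 it was 0.10 (adjusted p = 0.0408). Gclm and Txnrd1 were correlated across the 29 livers, with r = 0.657 (adjusted permutation p = 0.0162) and rho = 0.704 (adjusted permutation p = 0.00112). Without the 2 livers farthest out in Gclm r was 0.668, and with slide means removed it was 0.556. Of 45 pairs of members, 4 passed by r, and the 2 pairs Mt1 with Mt2 and Gclm with Txnrd1 passed by both measures. Hmox1 and Cat were the 1 pair that passed by rho alone and ran in opposite directions (rho = -0.551, adjusted permutation p = 0.0276, n = 29). Their r was -0.439 (adjusted permutation p = 0.125), -0.554 without the 2 livers farthest out in Hmox1 and -0.449 with slide means removed.

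Srxn1, sulfiredoxin, reactivates oxidised peroxiredoxins. It was -0.40 at the lowest, -0.15 at the median and 0.01 at the highest in cHF+PC livers. Values in cHF+R livers were -0.27, -0.04 and 0.48, in 7 cHF+PC+R livers -0.25, -0.16 and 0.44, and in cHF livers -0.42, -0.18 and -0.02. The cHF+R livers were split, with replicates 1 and 3 at 0.43 and 0.48 and replicates 2, 4 and 6 between -0.27 and -0.18. The Srxn1 change in cHF+R against cHF was 0.23 ± 0.118 (adjusted p = 0.364), and within the 5 slides with both groups it ran from 0.00 to 0.85. It was 0.14 without cHF+R replicate 3 (adjusted p = 0.616) and 0.15 without cHF+R replicate 1 (adjusted p = 0.601). Srxn1 followed Nqo1 across 28 livers by r (0.653, adjusted permutation p = 0.0378) but not past the threshold by rho (0.605, adjusted permutation p = 0.0755). Without the 2 livers farthest out in Nqo1 r was 0.57, and with slide means removed it was 0.747.

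Gsr, glutathione reductase, regenerates reduced glutathione with NADPH and varied little. Its values ran from -0.23 to 0.06 in cHF+PC livers, from -0.06 to 0.05 in cHF+R livers, from -0.20 to 0.04 in cHF+PC+R livers and from -0.27 to 0.16 in cHF livers. Against cHF, its changes were -0.03 ± 0.0544 in cHF+PC, 0.06 ± 0.0567 in cHF+R and 0.00 ± 0.0544 in cHF+PC+R livers (adjusted p = 0.808, 0.647 and 0.985). The second Gsr probe had changes of -0.02, 0.09 and 0.00. The 95% interval in cHF+PC+R against cHF ran from -0.11 to 0.11.

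Cat, catalase, was higher in the livers that had phospholipids. On the brighter of its 2 probes it was -0.20 at the lowest, 0.21 at the median and 0.31 at the highest in cHF+PC livers. The cHF+R livers had -0.15, -0.10 and 0.13, in cHF+PC+R livers 0.00, 0.20 and 0.28, and in cHF livers -0.16, -0.10 and 0.20. Most phospholipid livers lay above most others, but the groups overlap, and cHF+PC replicates 6 (-0.20) and 1 (-0.05) lay among the low ones.

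Cat rose in cHF+PC+R against cHF+R by 0.24 ± 0.0723, 1.18-fold (limma adjusted p = 0.0415). It was higher on 6 of 6 slides, from 0.15 to 0.40, and the change was 0.28 with the slide as a block (adjusted p = 0.0143). Of 16 other settings, 5 lost the call, and with median centring in place of loess the change was 0.02 (adjusted p = 0.999). In the same comparison the adipocyte gene Cfd fell by 3.01 ± 0.835 (adjusted p = 0.0267), the stellate cell marker Lrat fell by 0.58 ± 0.0943 (adjusted p = 0.000288) and the hepatocyte marker Cps1 rose by 0.56 ± 0.147 (adjusted p = 0.0191). Lrat also fell in cHF+PC against cHF, by 0.49 ± 0.0904, and in cHF+PC+R against cHF, by 0.34 ± 0.0904. Lrat was the only call among 5 stellate cell markers in each of these comparisons. Of the 5, 2 had a positive change in cHF+PC+R against cHF+R (median -0.04). In cHF+PC against cHF 1 was positive (median -0.03), and in cHF+PC+R against cHF 3 were (median 0.07). The part of these cells in the Cat and Nqo1 values was not tested. The Cat call was also lost in 11 of 29 runs with 1 liver left out, with changes between 0.22 and 0.28 and an adjusted p of up to 0.101. The livers were cHF+R replicates 1 (0.101), 2 (0.0742), 4 (0.064), 5 (0.0777) and 6 (0.0649). The others were cHF+PC+R replicates 1 (0.0762), 2 (0.0506), 3 (0.0707), 4 (0.0618), 5 (0.0669) and 8 (0.0628).

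The phospholipid effect averaged over rosiglitazone raised Cat by 0.21 ± 0.05 (adjusted p = 0.00469), and by 0.23 with the slide as a block (adjusted p = 0.00234). That call held without any 1 liver, with an adjusted p of at most 0.0101, and was lost under 2 of 15 other settings, median centring (0.11, adjusted p = 0.991) and scaling between arrays (0.26, adjusted p = 0.194). In cHF+PC against cHF the change was 0.18 ± 0.0692 (adjusted p = 0.155), and without cHF+PC replicate 6 it was 0.23 and passed (adjusted p = 0.0385). It was 0.20 ± 0.0692 in cHF+PC+R against cHF (adjusted p = 0.0703). For cHF+R against cHF it was -0.04 ± 0.0744 (adjusted p = 0.851).

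The second Cat probe matches another stretch of the transcript and holds a run of CA repeats. Binding of other transcripts to that run was not tested. The probe showed the same order with less spread. It was 0.24 at the lowest, 0.46 at the median and 0.48 at the highest in cHF+PC livers, and 0.12, 0.18 and 0.23 in cHF+R livers. It was 0.32, 0.41 and 0.48 in cHF+PC+R livers and 0.10, 0.23 and 0.34 in cHF livers. All cHF+PC+R livers lay above all cHF+R livers on this probe, and the same holds for cHF+PC against cHF+R. How many of all probes separate these groups in this way was not counted. The cHF+PC and cHF+R groups were not compared with each other in the fit. With each probe tested on its own among 23943 probes, it rose in cHF+PC against cHF by 0.17 ± 0.041 (adjusted p = 0.0161, where 3.83% of probes were called) and was higher on 6 of 7 slides. It rose by 0.17 ± 0.041 in cHF+PC+R against cHF (adjusted p = 0.00819, 9.03% of probes called). For cHF+PC+R against cHF+R the rise was 0.23 ± 0.0428 (adjusted p = 0.00093, 6.7% of probes called) and was higher on 6 of 6 slides, from 0.15 to 0.36. With the slide as a block the adjusted p in these 3 comparisons was 0.0358, 0.0192 and 0.0015.

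**Figure D4:**
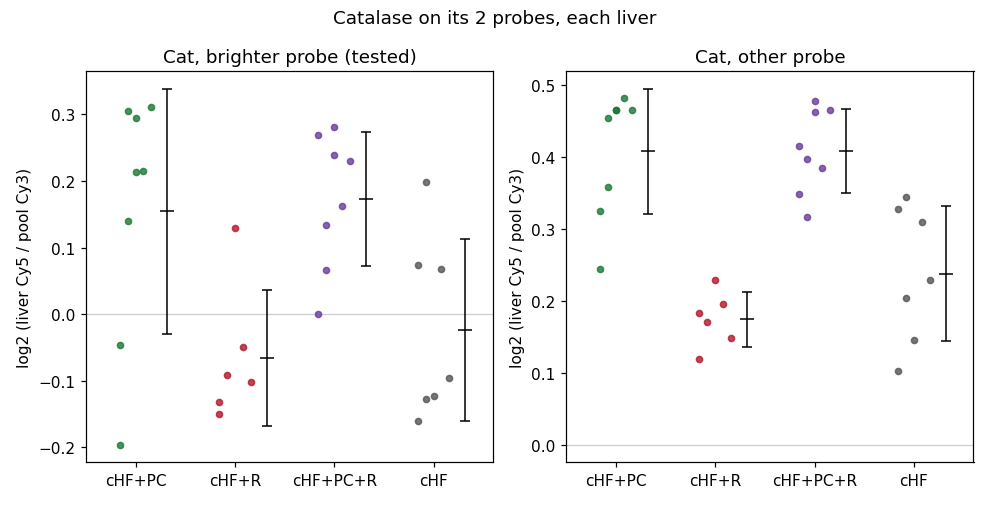
Log2 ratio of liver to pool for the 2 probes of Cat (y axes differ) in each liver of cHF+PC, cHF+R, cHF+PC+R and cHF, with mean ± SD beside the points. On the second probe the cHF+PC+R livers lie between 0.32 and 0.48 and the cHF+R livers between 0.12 and 0.23.

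The brighter probe spans 3343 bases of chromosome 2 in mm9, from 103297086 to 103300428 on the - strand, for 60 bases of probe, so it crosses at least 1 exon junction. The second lies from 103294487 to 103294546. The brighter one, as deposited, is shown because the called changes of Cat rest on it.

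Cat, exon-spanning probe: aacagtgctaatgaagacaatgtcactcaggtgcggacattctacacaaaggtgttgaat

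The genes most like Cat across livers after group means were subtracted were Huwe1, a ubiquitin ligase (0.787, 23 livers), Nomo1 (0.774) and Epg5 (0.764, both 29 livers). Peroxisomal oxidases produce the hydrogen peroxide that catalase removes. The list of these genes also held Pex11a and Pex5, which are peroxins and not oxidases. Of its 9 tested genes, 0 rose and 1 fell in cHF+PC against cHF. Paox, a polyamine oxidase, fell by 0.44 ± 0.106 (adjusted p = 0.0188). In that list Acox2, a branched-chain acyl-CoA oxidase, rose by 0.26 ± 0.0738 in cHF+PC+R against cHF, while Paox fell by 0.47 ± 0.11 and Hao1, a glycolate oxidase, by 0.32 ± 0.0921. Where Cat was called higher, in cHF+PC+R against cHF+R, 0 of these genes rose and Paox fell by 0.57 ± 0.123 (adjusted p = 0.00654).

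The regulators of the NRF2 system were listed as well. Nfe2l2, the gene of NRF2, had values on 15 arrays and was not tested. With marked spots kept it averaged 0.02 ± 0.12 in cHF+PC, 0.15 ± 0.24 in cHF+R, 0.12 ± 0.15 in cHF+PC+R and 0.03 ± 0.19 in cHF livers (SD). Of 8 tested regulators, 3 rose and 0 fell in cHF+PC against cHF, all small MAF genes: Maff by 1.03 ± 0.236 (adjusted p = 0.0109), Mafg by 0.31 ± 0.0712 (adjusted p = 0.013) and Mafk by 0.30 ± 0.0711 (adjusted p = 0.0153). The same 3 rose in cHF+PC+R against cHF, by 0.83, 0.32 and 0.24, and 0 of 8 passed in cHF+R against cHF by limma, with 1 under an unadjusted 0.05. With the phospholipid effect averaged over rosiglitazone, Bach1 rose as well (0.26 ± 0.0796, adjusted p = 0.023). Against cHF, Keap1 had changes of 0.03 in cHF+PC, 0.06 in cHF+R and 0.07 in cHF+PC+R livers, none past the threshold.

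Of 21 other NRF2 targets, mostly glutathione transferases and export pumps, 7 rose and 2 fell in cHF+PC+R against cHF, with a median of 0.32. The 4 with the smallest adjusted p were Abcc3, an export pump (rose by 0.73 ± 0.113), Gstm2 (fell by 0.81 ± 0.141), Gsta4 (rose by 0.58 ± 0.127) and Gsta2 (rose by 1.32 ± 0.358, adjusted p = 0.0182). In cHF+PC against cHF, 1 rose and 2 fell: Abcc3 rose by 0.49 ± 0.113, while Gstm2 and Gsta3 fell by 0.60 ± 0.141 and 0.49 ± 0.124. The cHF+R livers had 2 higher and 1 lower than cHF: Mgst3 and Abcc4 rose by 1.12 ± 0.183 and 1.05 ± 0.171, and Gstm2 fell by 0.59 ± 0.152. The list thus held calls in both directions in all 3 comparisons.

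In the glutathione system, where Gclc, Gclm and Gsr work, 1 of 14 genes rose in cHF+PC against cHF: Oplah, 5-oxoprolinase, by 0.28 ± 0.0683 (adjusted p = 0.0187). With both supplements, in cHF+PC+R against cHF, 2 rose and 1 fell: Oplah rose by 0.36 ± 0.0683, Gpx1, the main cytosolic glutathione peroxidase, by 0.34 ± 0.0734 (adjusted p = 0.00376), and Hagh, a glyoxalase, fell by 0.13 ± 0.0425. Gpx1 also rose in cHF+PC+R against cHF+R by 0.32 ± 0.0734 (adjusted p = 0.00686), the comparison in which Cat was called. Gpx7 rose in cHF+R against cHF by 0.22 ± 0.0573 and Hagh fell by 0.25 ± 0.0457. Slc7a11, the cystine importer, was well above background on 0 arrays.

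Among 16 thioredoxin system genes, Txn2, the mitochondrial thioredoxin, was the only call in cHF+PC against cHF (rose by 0.14 ± 0.0344, adjusted p = 0.0194). With rosiglitazone alone, 2 rose and 2 fell against cHF: Prdx3 and Prdx1 rose by 0.35 ± 0.0724 and 0.20 ± 0.0501, and Prdx6 and Msrb1 fell by 0.41 ± 0.0626 and 0.40 ± 0.0755. The list had 1 gene higher and 2 lower in cHF+PC+R against cHF, with Prdx1 up by 0.16 ± 0.0466, Msrb1 down (-0.24 ± 0.0703) and Sesn3 down (-0.21 ± 0.0647). Prdx6, a peroxiredoxin, rose in cHF+PC+R against cHF+R by 0.36 ± 0.0607 (adjusted p = 0.000407), and Prdx3, its mitochondrial relative, fell by 0.36 ± 0.0703. The superoxide dismutase list held Sod1, Sod2, Sod3 and Ccs, the copper chaperone of SOD1. Of these 4 genes, 0 passed in any of the 8 comparisons, with at most 2 under an unadjusted 0.05. Against cHF, Sod1 had changes of -0.12 in cHF+PC, 0.01 in cHF+R and -0.02 in cHF+PC+R livers. Sod2 had 0.05 in cHF+PC, -0.02 in cHF+R and -0.00 in cHF+PC+R livers.

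NADPH, the electron source of Nqo1, Gsr and Txnrd1, is supplied by a small set of enzymes. Of 8 tested genes, Me1, malic enzyme, fell in cHF+PC against cHF by 1.20 ± 0.281 (adjusted p = 0.0129) as the only call. With rosiglitazone alone 3 rose against cHF: Idh2 by 0.50 ± 0.0705, G6pdx by 0.35 ± 0.0856 and Pgd by 0.47 ± 0.132 (adjusted p = 0.044). Idh2 and Nnt rose in cHF+PC+R against cHF, by 0.52 ± 0.0656 and 0.27 ± 0.0514. Between cHF+PC+R and cHF+R, 1 was higher and 6 were lower in cHF+PC+R. Me1 fell by 1.71 ± 0.293, Taldo1 by 0.58 ± 0.12, Pgd by 0.59 ± 0.128 and G6pdx by 0.36 ± 0.0831.

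**Figure D5:**
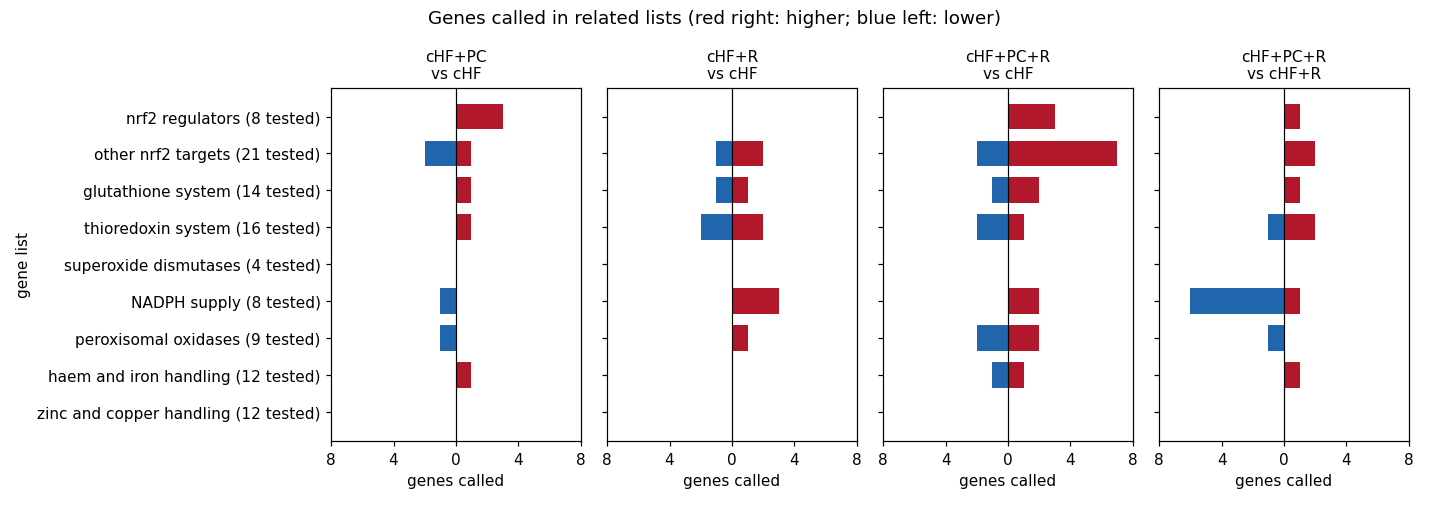
Number of genes called higher (red, to the right) and lower (blue, to the left) in 9 related gene lists (y axis, with the number tested) for 4 comparisons. The NADPH supply list had 6 genes lower in cHF+PC+R against cHF+R, and the superoxide dismutases and the zinc and copper genes had 0 calls in all 4.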

How the data were processed

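RNA of 29 livers was hybridised against a pool of all samples without dye swaps. Per the file headers, the authors' scanner files hold linear intensity per spot in both dyes with outlier and background flags, from Agilent Feature Extraction 10.5.1.1 on build mm9, not normalized between arrays. Per the design text, the authors left out 1 array of cHF and 1 of cHF+R before normalizing. The authors also deposited a log2 table of 25806 probes (median 9.03 per column), whose normalization the sources used here do not give. All 29 of its columns followed their own array best, and it served as an alternative.

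Intensities were corrected with normexp (offset 50) and loess-normalized in limma 3.58.1 (R 4.3.3, with data.table, version 1.17.8), where control spots were given no weight. Spots marked as outliers were left out, and spots of a probe were averaged. The filter kept 23943 of 39429 probes, those with a Cy5 signal well above background on 6 or more arrays and a value on 20 or more. Each gene was represented by its brightest probe. Gene names were updated through accessions (26412 probes), symbols (3854) or synonyms (735), and 8428 probes keep the file's name.

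The 4 group means were fitted to all 29 arrays with lmFit and eBayes, and p-values (two-sided) were adjusted over 19475 genes. Changes are differences of log2 ratios ± SE. The labels number replicates without saying that each is a separate mouse, so p-values measure the spread between these samples. The fit was tested on simulated data. The members and all lists were chosen with earlier results of these data known. All 10 genes are described. Of listed genes, up to 4 per list and comparison with the smallest adjusted p are named, beside a few fixed ones, and the 3 genes most like Mt1, Mt2, Hmox1 and Cat. Sequences are RefSeq's (GRCm38.p6) or the deposited probe. Alternatives were other background, normalization and filter settings, the mean of a gene's probes, slide and replicate blocks, only the compared groups, array weights, each array left out and, chosen after seeing the data, marked spots kept. The values of 1 listed gene are not reported here, though the list counts include it.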

Additional observations from a re-analysis of the deposited data

Results flagged for a closer look

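In 40 groups of 5 to 8 livers, 1 per gene and diet, 2 held a liver far from the rest of its group, and chance gives about 1 in 20 groups. Mt2 was 1.99 in cHF+PC replicate 2, against -0.15 in the next of 6 livers, and Mt1 was 1.82 in that liver. The Mt2 spots of cHF+PC replicates 6 and 7 had been left out as marked. Kept, replicate 6 reads 1.79 for Mt2, so that replicate 2 does not stand alone, and Mt1 was 2.30 in replicate 6. Cat was 0.13 in cHF+R replicate 3, against -0.05 in the next of 6 livers, while on the second Cat probe that liver read 0.23, against 0.19 in the next.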

How the results depend on the processing

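No change that passed the threshold turned its direction under any alternative, while some estimates that did not pass changed sign, such as Mt1 in cHF+PC+R against cHF+PC (-0.15, and 0.33 with array weights) and Cat in cHF+R against cHF (-0.04, and 0.28 with median centring). The count of members past the threshold in cHF+PC+R against cHF, 1 (Nqo1), was 0 without background subtraction, with Feature Extraction's signals, with median centring, with scaling between arrays, with Cy5 alone, with the deposited table and with no filter. It was 2 with the mean of a gene's probes and 3 with only the groups compared. A count of 1 did not always stand for Nqo1. With the slide block the call was Gclc (adjusted p = 0.0488), and Nqo1 was lost (0.0742). With array weights the call was Cat (adjusted p = 0.0352), and Nqo1 was lost (0.0629). In cHF+PC+R against cHF+R the count, 1 (Cat), was 0 with Feature Extraction's signals, median centring, scaling, Cy5 alone and no filter. It was 2 without background subtraction, with the deposited table, with the slide block and with the replicate block, Gclm being the added gene in each (0.26 under the replicate block, adjusted p = 0.0391). After group means were subtracted, same-numbered replicates correlated from -0.334 to 0.396 over 40 pairs, with 14 over 0.1. Among arrays of other groups, 9 of 29 arrays correlated best with one of their own number. In cHF+PC and cHF+PC+R the replicate numbers coincide with the slides. The labels do not say that a number marks a pair, so the numbers were not taken as pairs in the main fit. The averaged phospholipid effect, 2 calls, had 4 without background subtraction and with Feature Extraction's signals and 0 with median centring and scaling. Gclm, not called for that effect in the main fit, passed in 8 of 15 other settings, the deposited table among them (adjusted p = 0.0131). In cHF+PC against cHF, array weights gave 1 call (Cat, adjusted p = 0.0423) instead of 0. With each liver left out in turn, the counts ran from 0 to 1 in cHF+PC against cHF, 0 to 2 in cHF+PC+R against cHF, 0 to 2 in cHF+PC+R against cHF+R, 1 to 4 for the averaged phospholipid effect and 0 to 1 for the averaged rosiglitazone effect. With median centring the median of all genes moved to 0.15 in cHF+R against cHF, and 163 of 19475 genes were called for the averaged phospholipid effect, against 3163. Fitting only the groups compared gives no value for the interaction and the averaged effects. The number of arrays limits the precision, and the causes were not tested.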
